A study of Mus musculus with 4 samples.

Results

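The interleukin 1 genes described here are 8 of the 32285 genes counted in the series, namely Il1a, Il1b, Il1f9, Il1rn, Il1r2, Il1rap, Nlrp3 and Ptgs2. They were taken by gene symbol, and each of the 8 was found in all 4 libraries. The series asks what loss of Ndufa4, a subunit of cytochrome c oxidase (complex IV of the respiratory chain), does to the immune cells of mice that carry a melanoma. Its 4 droplet single-cell libraries are tumour Ndufa4-deficient (KO), tumour wild-type (WT), spleen KO and spleen WT. All donors were male C57BL/6 mice aged 8 weeks, and all of them, WT mice included, bore a subcutaneous B16-F10 tumour, a melanoma line of the same strain, for 18 days. The tumour sort took all cells with CD45, a marker of leukocytes, and the spleen sort those that also carried CD11b, a marker of myeloid cells. Cells of 3 mice were pooled in equal numbers into each library (the protocol allows 3 to 4), and the cells in which Ndufa4 was deleted are not given in the sources used here. With 1 library per genotype and organ there was no test between groups, no difference below has a replicate check, and every interval in square brackets covers counting error only.

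Interleukin 1 alpha and interleukin 1 beta are the classical alarm cytokines of myeloid cells. Both bind the receptor IL1R1, which signals through MyD88 to NF-kB once the accessory chain IL1RAP has joined it. The system is braked at the receptor: IL1RN, the interleukin 1 receptor antagonist, occupies IL1R1 without signalling, and IL1R2 is a decoy that binds the cytokine and has no signalling domain. Interleukin 1 beta is made as an inactive precursor that caspase 1 cleaves in inflammasomes such as the one nucleated by NLRP3, so its messenger RNA does not show how much active cytokine is made. Il1f9, now named Il36g, encodes interleukin 36 gamma, a relative that also uses IL1RAP. Ptgs2 encodes cyclooxygenase 2, the inducible prostaglandin synthase and a classical interleukin 1 response gene. In tumours, neutrophils, monocytes and macrophages are the usual sources of interleukin 1 beta.

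All 8 genes are annotated as protein coding on GRCm38. The 2 ligand genes are neighbours on the minus strand of chromosome 2, Il1a at chr2:129299610-129309972 and Il1b at chr2:129364570-129371139. Il1f9 (chr2:24186476-24193568) and Il1rn (chr2:24336853-24351494) lie on the plus strand of the same chromosome. Il1r2 (chr1:40074079-40125231) and Ptgs2 (chr1:150100031-150108227) are on chromosome 1, Nlrp3 (chr11:59541568-59566956) on chromosome 11 and Il1rap (chr16:26581704-26730117) on chromosome 16.

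The 250 bases before the start of 4 of these genes are printed from RefSeq (GRCm38.p6), 5′ to 3′ on the gene's own strand. They were chosen because the results turn on the contrast of Il1b and Il1rn, because Il1a is the neighbour of Il1b, and because Ptgs2 had the pattern most like Il1rn. The Il1rn window belongs to 1 of its 3 annotated starts. Capitals mark matches to C/EBP (TTNNGNAA), PU.1 (GAGGAA), AP-1 (TGANTCA) or the TATA box (TATAAA), searched on both strands, as was an NF-kB motif.
Il1a, chr2:129309973-129310222, minus strand: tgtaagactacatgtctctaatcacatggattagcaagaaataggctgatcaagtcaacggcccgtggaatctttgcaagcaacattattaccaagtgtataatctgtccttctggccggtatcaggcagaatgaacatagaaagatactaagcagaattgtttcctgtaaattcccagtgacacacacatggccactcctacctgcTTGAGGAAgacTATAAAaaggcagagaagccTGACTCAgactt
Il1b, chr2:129371140-129371389, minus strand: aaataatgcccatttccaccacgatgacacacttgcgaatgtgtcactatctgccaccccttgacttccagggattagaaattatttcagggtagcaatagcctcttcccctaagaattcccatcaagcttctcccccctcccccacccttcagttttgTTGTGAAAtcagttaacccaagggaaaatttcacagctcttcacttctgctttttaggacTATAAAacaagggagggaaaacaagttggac
Il1rn, chr2:24345041-24345290, plus strand: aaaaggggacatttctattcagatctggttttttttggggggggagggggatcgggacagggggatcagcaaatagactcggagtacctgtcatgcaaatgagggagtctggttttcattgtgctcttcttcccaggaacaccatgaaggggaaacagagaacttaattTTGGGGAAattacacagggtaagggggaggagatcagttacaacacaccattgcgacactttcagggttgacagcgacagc
Ptgs2, chr1:150099781-150100030, plus strand: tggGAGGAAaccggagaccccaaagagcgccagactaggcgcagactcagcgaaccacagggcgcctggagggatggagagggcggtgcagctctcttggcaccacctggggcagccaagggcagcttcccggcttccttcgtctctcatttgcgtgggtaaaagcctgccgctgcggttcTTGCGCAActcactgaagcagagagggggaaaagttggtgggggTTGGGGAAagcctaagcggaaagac
Both ligand promoters held a TATA box, 32 to 27 bases before the start in Il1a and 31 to 26 bases before it in Il1b. The Il1a window also held a C/EBP match that overlaps a PU.1 match, and an AP-1 match 12 to 6 bases before the start. The Il1b and Il1rn windows each held 1 C/EBP match, and the Ptgs2 window held 2 and a PU.1 match. Such matches are common. Over 32851 promoters of 27025 genes, 36.8% held the C/EBP motif, 23.3% the PU.1 motif, 12.4% the TATA box, 7.25% the NF-kB motif and 6.75% the AP-1 motif. The NF-kB letters were not in the 4 windows printed and were in 1 of 2 windows of Nlrp3.

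The 4 libraries held 4798 to 8107 barcodes and 46499361 to 63560706 unique molecular identifiers (UMIs, 1 per captured RNA molecule). After filtering, 4406 tumour KO, 3841 tumour WT, 6766 spleen KO and 7099 spleen WT cells were kept, with median depths of 10314, 7116, 4377 and 4671 UMIs. Ndufa4 had 805 UMIs in the tumour KO library against 13975 in the tumour WT library, and 27 in the spleen KO library against 13651 in the spleen WT library. Library pairs shared 6 to 22 barcodes, 0.125% to 0.359% of the smaller library. Cells were put into classes by marker genes, none of which is one of the 8 genes, and the gate left out 10.8%, 20.6%, 8.22% and 11.7% of the kept cells in the same order. Neutrophils were 100 of the KO tumour cells (2.27%) and 753 of the WT tumour cells (19.6%), and T cells 39.9% in KO and 16.3% in WT. In tumour T cells, which should lack them, 12 neutrophil markers summed to 11.8 counts per 1000000 class UMIs (CPM) in KO and 66.6 CPM in WT.

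In every library Il1b was the most abundant of the 8 in the neutrophil class, and the neutrophil class held the highest level of each of the 8 apart from Il1a in the spleen, which had 0 to 9 UMIs in any single class. In the WT tumour Il1b stood at 4399.6 CPM [4323, 4478] in neutrophils, 674 CPM [653, 695] in monocytes, 292 CPM [277, 308] in dendritic cells and 221 CPM [212, 229.9] in macrophages, 4 levels whose intervals did not overlap. The B cell class, whose neutrophil markers summed to 5642 CPM in this library, stood at 350.2 CPM [310.4, 394], between monocytes and dendritic cells. Natural killer and T cells had 6.75 CPM [2.48, 14.7] and 5.34 CPM [3.83, 7.24], which overlapped. In the KO tumour Il1b stood at 6745 CPM [6489, 7008] in neutrophils, 1216 CPM [1192, 1241] in monocytes, 599 CPM [578, 621] in macrophages and 452 CPM [436, 469] in dendritic cells, again with no overlap, but with macrophages above dendritic cells. Because UMIs are counted at the 3′ end, 1 per molecule, these levels do not scale with transcript length.

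The antagonist had a different order. In the WT tumour Il1rn stood at 1814 CPM [1765, 1864] in neutrophils, 343 CPM [303, 386] in the B cell class, 249 CPM [240.1, 259] in macrophages and 205 CPM [194, 217] in monocytes, and 41.3 CPM [35.7, 47.6] in dendritic cells. In the KO tumour neutrophils had 1566 CPM [1444, 1695], and the macrophage and monocyte levels of 173 CPM [162, 185] and 158 CPM [149, 167] overlapped, with 19.3 CPM [16.0, 23.0] in dendritic cells. The decoy receptor Il1r2 had a place in dendritic and regulatory T cells as well: 1098 CPM in KO and 887 CPM in WT neutrophils, 71.8 and 145 CPM in KO and WT dendritic cells, and 36.0 and 64.3 CPM in KO and WT Foxp3-positive regulatory T cells, a population known to carry this decoy in human tumours. Outside neutrophils, the tumour levels of Il1rap in monocytes, macrophages, T cells and natural killer cells lay between 6.76 and 18.9 CPM in KO and between 8.99 and 16.6 CPM in WT.

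Il1f9 was close to a neutrophil gene, with 169.7 CPM in KO and 264 CPM in WT tumour neutrophils against 2.19 and 3.17 CPM in the monocytes and macrophages of the same tumours. Nlrp3 had a narrower span, 437 CPM in KO and 315 CPM in WT neutrophils against 85.1 and 63.9 CPM in monocytes and macrophages. Il1a, which many cells keep as an intracellular alarm protein, was the scarcest ligand, with 119 UMIs in all kept KO tumour cells and 257 in all kept WT tumour cells, beside 20712 and 23327 UMIs of Il1b.

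**Figure D1:**
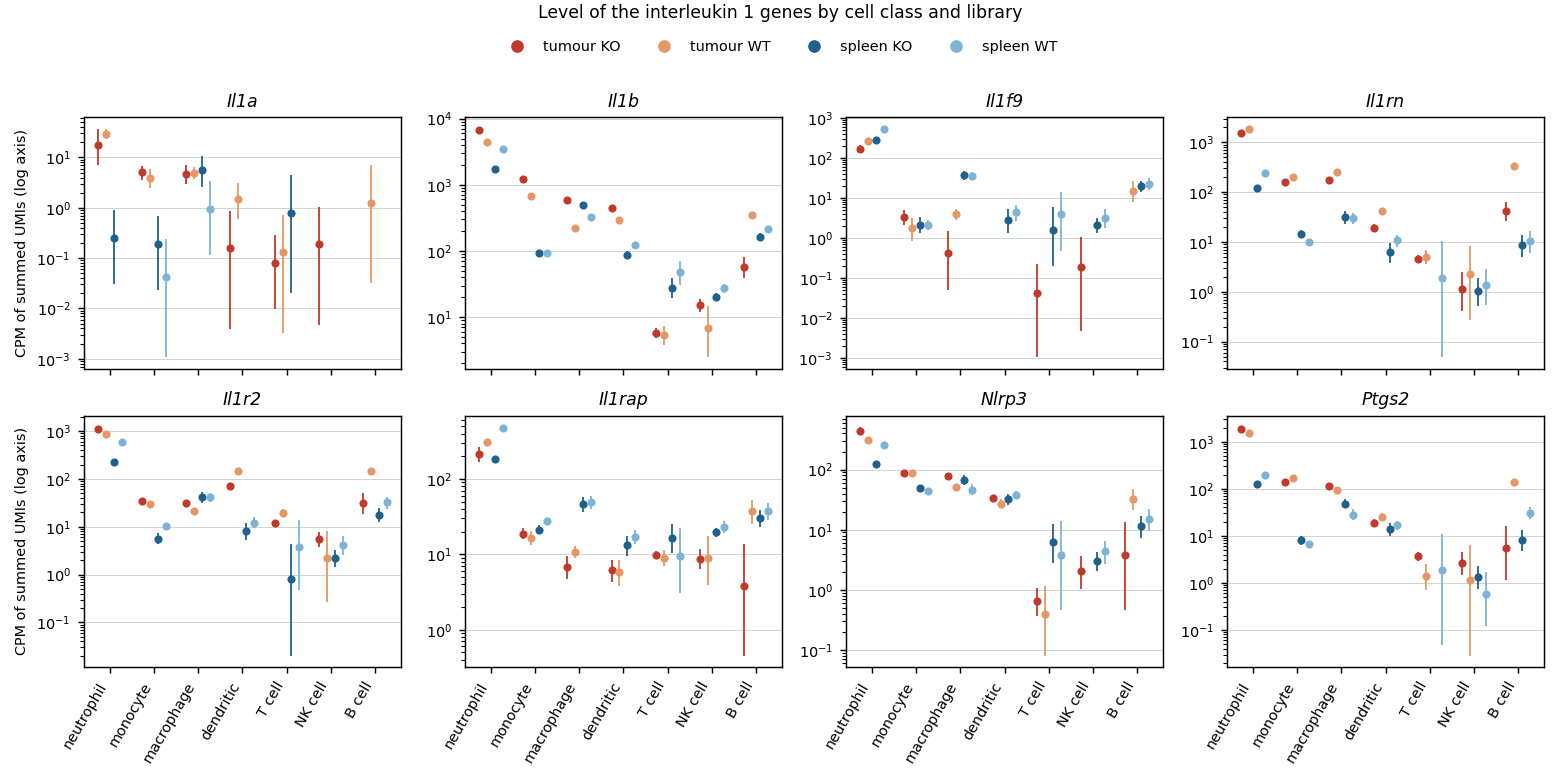
Level of the 8 genes (CPM of summed UMIs, log axis) by cell class, with KO then WT tumour and KO then WT spleen libraries side by side; bars are exact 95% Poisson intervals. Il1b in neutrophils is the highest point of the set, at 6745 CPM in KO and 4399.6 CPM in WT tumours, and Il1rn and Ptgs2 stand far higher in tumour than in spleen neutrophils.

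In the mononuclear phagocytes of the tumour, monocytes and macrophages as 1 class, the KO library had more Il1b than the WT library, while its Il1rn lay lower but inside the limit for a call. The ligand Il1b had 980.3 CPM [963, 998] in 573 KO monocytes and 276 KO macrophages, against 378 CPM [368, 387] in 432 WT monocytes and 585 WT macrophages, a log2 ratio of KO over WT of 1.38 [1.33, 1.42]. The KO library was 2.60-fold higher, from 12518 and 6313 UMIs. The antagonist Il1rn went the other way by less, 164 CPM [157, 171] in KO and 234 CPM [227, 242] in WT, a log2 ratio of -0.52 [-0.59, -0.44], which stayed inside the 1.5-fold limit used for a call. Over the alternative ways of processing the cells, the Il1b ratio ran from 1.31 to 1.39, and the Il1rn ratio from -0.77 to -0.45.

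Shares of cells gave the same directions at equal depth. When each cell was thinned to 1000 UMIs, 43.4% [40.0, 46.8] of KO and 18.7% [16.3, 21.2] of WT mononuclear phagocytes had an Il1b UMI, and 9.0% [7.16, 11.1] of KO and 15% [12.9, 17.4] of WT cells had an Il1rn UMI. Before thinning the shares were 75.5% in KO and 50.0% in WT for Il1b, and 41.1% in KO and 46.2% in WT for Il1rn. T cells, which should lack both, gave thinned shares of 1.03% in KO and 0.806% in WT for Il1b and 0.342% and 0.323% for Il1rn. Neutrophil markers in the phagocytes summed to 242 CPM in KO (1 of 12 at 0) and 577 CPM in WT (0 of 12 at 0), against 79224 and 72584 CPM in KO and WT neutrophils. Among the cells with no UMI of the neutrophil genes S100a8 and S100a9, Il1b had 956 CPM in KO and 371 CPM in WT, a log2 ratio of 1.36, and Il1rn 149.8 and 204 CPM, a log2 ratio of -0.45. That filter kept 739 of 849 KO cells but 488 of 1017 WT cells. The kept cells were 502 monocytes and 237 macrophages in KO, and 212 and 276 in WT, so the libraries were not cut alike.

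The other 6 genes moved little in these cells. Il1a had 4.93 CPM in KO and 4.61 CPM in WT (0.099 [-0.40, 0.60]), and Il1f9 2.19 and 3.17 CPM (-0.53 [-1.25, 0.16]). Both intervals include no difference, and the cells held 63 KO and 77 WT UMIs of Il1a and 28 and 53 of Il1f9. The decoy Il1r2 had 33.0 CPM in KO and 24.3 CPM in WT (0.44 [0.24, 0.64]), the accessory chain Il1rap 14.3 and 12.9 CPM (0.15 [-0.14, 0.44]). The sensor Nlrp3 had 85.1 CPM in KO and 63.9 CPM in WT (0.41 [0.29, 0.54]), and Ptgs2 132 and 122 CPM (0.11 [0.019, 0.21]). In all, 1 of the 8 genes was past 1.5-fold higher and 0 lower, where 9.11% of 10710 genes were past it higher and 11.3% lower. The median log2 ratio was 0.13 over the 8 genes and -0.026 over all genes tested.

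**Figure D2:**
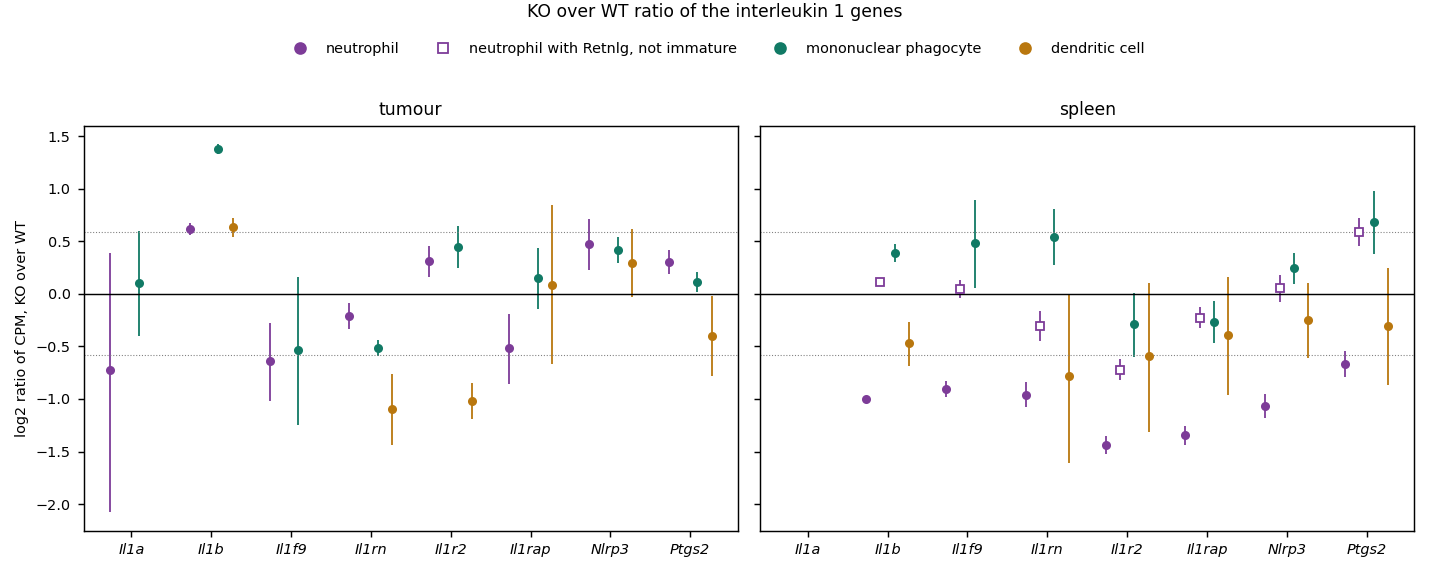
Log2 ratio of KO over WT for each gene and class, tumour in one panel and spleen in the other, with 95% intervals that cover counting error only; dotted lines mark 1.5-fold, and genes with fewer than 50 UMIs in both libraries together are not drawn. In tumour mononuclear phagocytes Il1b lies at 1.38 and Il1rn at -0.52, while in spleen all values of the whole neutrophil class lie below 0. Those of Retnlg-positive spleen neutrophils lie nearer to 0, but Il1r2 stays past 1.5-fold lower (-0.72) and Ptgs2 lies past it on the other side (0.59).

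The balance of ligand to antagonist can be read within a library, since both genes share its depth. Tumour mononuclear phagocytes held 5.99 UMIs of Il1b for each UMI of Il1rn in KO and 1.61 in WT. The alternatives gave 5.44 to 6.76 in KO and 1.49 to 1.82 in WT, ranges that did not meet. By the gate the joined class held 573 monocytes and 276 macrophages in KO, and 432 and 585 in WT. No alternative held that mix fixed, and its part in the ratio was not tested. In dendritic cells the ratio was 23.4 in KO and 7.07 in WT, in monocytes 7.70 and 3.28, and in macrophages 3.46 and 0.886. Among these classes, only WT macrophages held more antagonist than ligand UMIs. Tumour neutrophils had 4.31 in KO and 2.43 in WT, but their alternatives overlapped, 2.11 to 6.82 in KO and 1.64 to 2.88 in WT, as did those of macrophages, 1.15 to 4.08 and 0.785 to 1.18. In the spleen the ratio in neutrophils was 14.2 in KO and 14.6 in WT, and in mononuclear phagocytes 8.82 and 9.79, above the tumour values of the same genotype. The spleen ratio was 6.44 in KO and 9.46 in WT monocytes and 14.2 and 11.4 in dendritic cells, so in KO both lay below the tumour value and in WT above it. The joined spleen class holds macrophages with neutrophil markers at 7797 CPM in KO and 5245 CPM in WT. A UMI ratio of 2 genes also carries their capture, which may differ between genes, so it is compared between libraries and not read as a ratio of proteins.

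**Figure D3:**
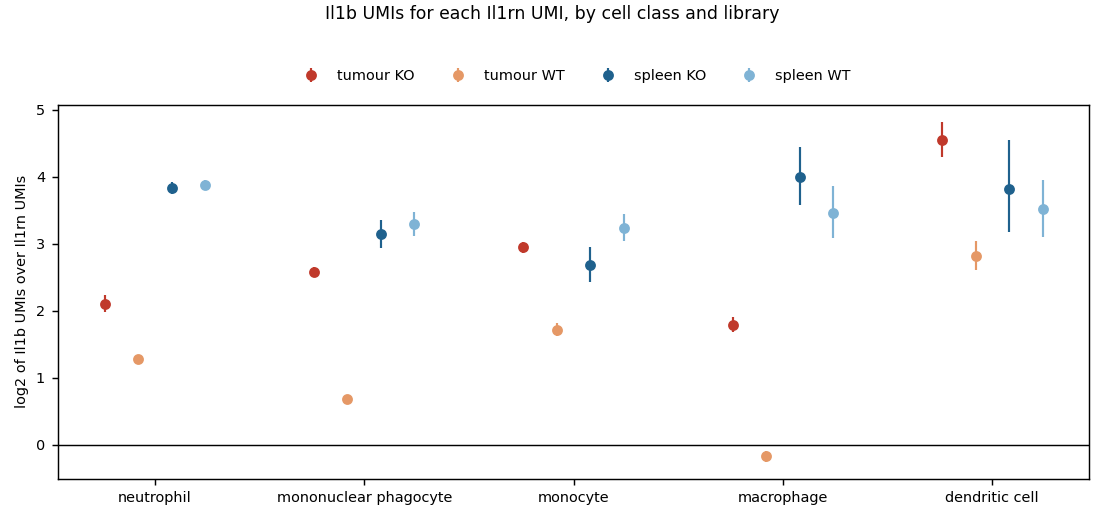
Log2 of Il1b UMIs over Il1rn UMIs by cell class (0 means equal numbers), with KO then WT tumour and KO then WT spleen points and 95% counting intervals. The KO point lies above the WT point in tumour mononuclear phagocytes (5.99 and 1.61 Il1b UMIs for each Il1rn UMI) and dendritic cells (23.4 and 7.07), and the spleen points of neutrophils nearly coincide (14.2 and 14.6).

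How the Il1b difference divided between tumour monocytes and macrophages changed with the way the border between them was drawn. By the marker gate, Il1b had 1216 CPM in KO and 674 CPM in WT monocytes (0.85 [0.80, 0.91]), and 599 CPM in KO and 221 CPM in WT macrophages (1.44 [1.36, 1.52]). With Leiden clusters in place of the gate the monocyte ratio was 1.43 and the macrophage ratio 0.19, no longer past 1.5-fold. Il1rn behaved likewise, with -0.38 in monocytes and -0.53 in macrophages by the gate, but 0.19 and 0.23 by clusters. The lower level of Il1rn in KO held for the joined class under every alternative run, and not for each class alone. By the gate the joined class held 573 monocytes and 276 macrophages in KO, and 432 and 585 in WT. Its ratios therefore carry that mix as well as the levels, and the part of the mix was not tested. In the monocyte gate 1 of 7 genes with enough UMIs was higher and 0 lower, beside 7.47% and 7.5% of all genes, and in the macrophage gate 2 were higher and 1 lower of 7, beside 8.18% and 9.68%. The other 2 macrophage calls were Nlrp3, 79.6 CPM in KO and 50.8 CPM in WT (0.65 [0.46, 0.84]), and Il1rap, 6.76 and 10.9 CPM (-0.69 [-1.29, -0.12]). These were fragile: 4 alternatives ended the Nlrp3 call (range 0.26 to 0.81) and 5 the Il1rap call (range -1.02 to -0.24).

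Subsets set by single marker genes had Il1b ratios of different sizes, and not all could be compared. Macrophages with a UMI of Arg1 and none of Cxcl9 were 45 in KO and 185 in WT, too few in KO for a ratio. Macrophages with a UMI of Cxcl9, an interferon-induced chemokine, and none of Arg1 (133 KO and 100 WT cells) had 646 CPM of Il1b in KO against 89.1 CPM in WT, from 1720 and 210 UMIs, a log2 ratio of 2.86 [2.65, 3.07]. The alternatives kept that ratio between 2.24 and 3.54. In the same subset Nlrp3 had 75.9 and 41.6 CPM in KO and WT (0.87), Ptgs2 112 and 56.0 CPM (1.0) and Il1rap 7.51 and 17.4 CPM (-1.21). These 4 calls held under all 9 alternatives run on the subset, Il1rap with a range of -1.40 to -0.62, and Il1rn stayed within 1.5-fold at 121 and 149 CPM (-0.31). The share of all genes past 1.5-fold was not counted in this subset, so the calls have no background beside them. A subset set by single UMIs depends on depth, and these cells had median depths of 19633 UMIs in KO and 22599.5 UMIs in WT. Non-classical monocytes (more Ace and Adgre4 than Ly6c2 UMIs) had 1416 CPM of Il1b in KO and 707 CPM in WT (1.00 [0.92, 1.09]), within 0.89 to 1.39 over the alternatives. Classical monocytes had 1144 and 695 CPM (0.72 [0.64, 0.80]), where the stricter gate gave 0.38 and ended the call. Il1rn in non-classical monocytes had 72.8 CPM in KO and 126 CPM in WT (-0.79 [-1.08, -0.51]), a call that 2 alternatives ended (range -1.26 to -0.23).

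Tumour neutrophils, the class with the highest Il1b, were few in the KO library, so their values rest on 100 KO and 753 WT cells. Il1b had 6745 CPM in KO and 4399.6 CPM in WT (0.62 [0.56, 0.68]), a call that 5 of 9 alternatives ended. Of those, 2 rescale the class by its other genes, which moved all neutrophil ratios down by 0.40 (TMM) or 0.41 (median of ratios) and left Il1b at 0.22 and 0.21. The median over all 4971 genes tested was 0.13 before rescaling. Il1rn had 1566 CPM in KO and 1814 CPM in WT (-0.21 [-0.34, -0.091]), and Leiden clusters turned its sign (0.070). The typical cell differed more than the sum: at the median cell Il1b stood at 54.6 UMIs per 10000 in KO and 18.7 in WT, and Il1rn at 2.77 in KO and 8.62 in WT. After thinning, 34.4% [25.0, 44.8] of KO and 55.2% [51.5, 58.9] of WT neutrophils had an Il1rn UMI, and 80.2% [70.8, 87.6] and 66.0% [62.3, 69.4] had one of Il1b.

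The other neutrophil values were 169.7 CPM in KO and 264 CPM in WT for Il1f9 (-0.64 [-1.02, -0.27]), a call ended by 6 of 9 alternatives, and 18.0 and 29.6 CPM for Il1a, from 7 and 84 UMIs (-0.72 [-2.08, 0.39]), whose interval includes no difference. The decoy Il1r2 had 1098 CPM in KO and 887 CPM in WT (0.31, or -0.088 with TMM), and Ptgs2 1895 and 1539 CPM (0.30, or -0.095 with TMM), so the scaling decided both signs. Il1rap had 213 and 306 CPM (-0.52) and Nlrp3 437 and 315 CPM (0.47). In sum 1 of 8 genes was past 1.5-fold higher and 2 lower, in a class where 24.5% of all genes tested were higher and 15.3% lower, a share near that background.

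**Figure D4:**
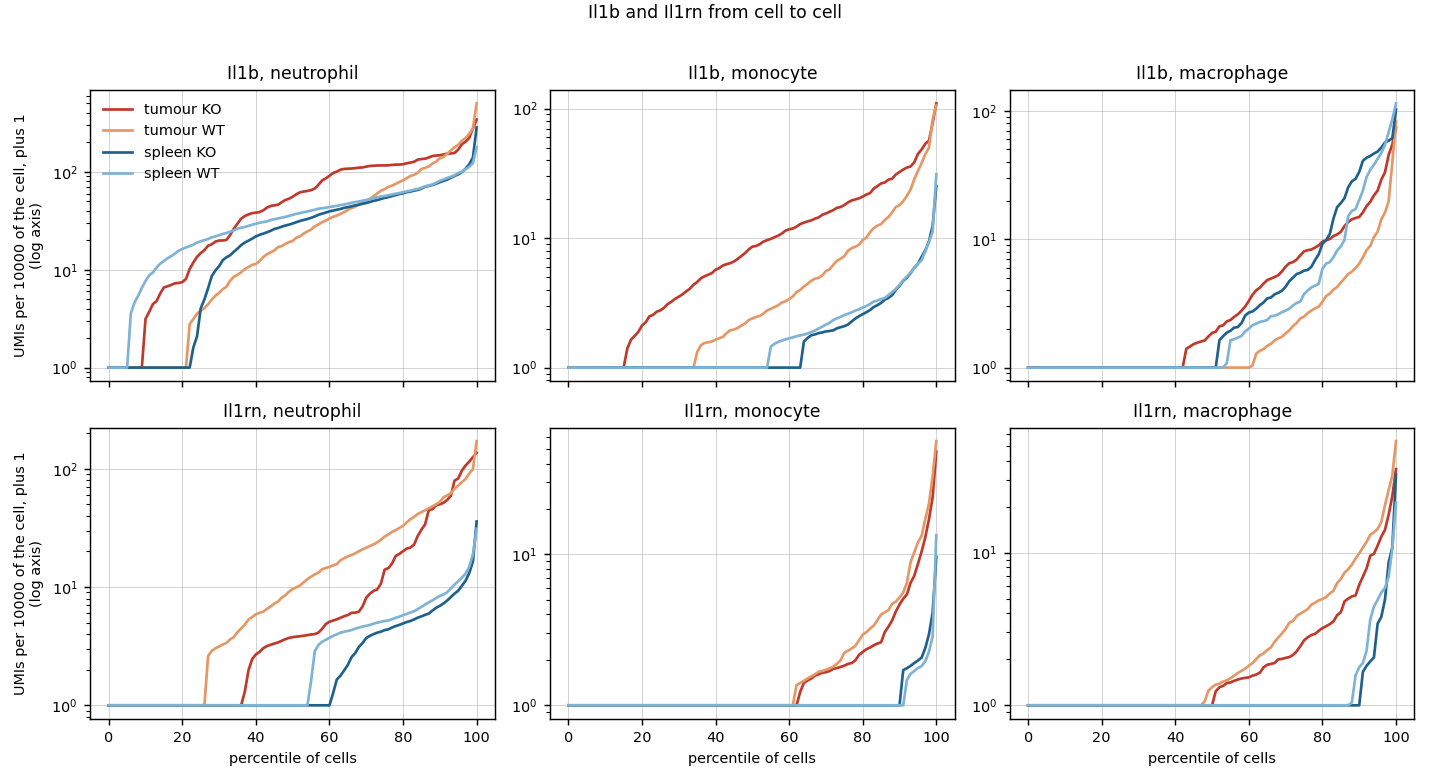
Il1b and Il1rn in single cells (UMIs per 10000 plus 1, log axis) against the percentile of cells, for neutrophils, monocytes and macrophages, with KO and WT curves of the tumour and of the spleen. Among tumour neutrophils the KO curve of Il1b passes its middle at 54.6 UMIs per 10000 against 18.7 in WT, while for Il1rn the values are 2.77 and 8.62.

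Within tumour neutrophils of equal depth, the share of cells with an Il1rn UMI was set out for cells with and without an Il1b UMI, as a description of single libraries with no test. In the KO tumour 29.9% of 77 cells with Il1b and 52.6% of 19 cells without it had Il1rn. In the WT tumour the shares were 48.6% of 467 cells with Il1b and 68.0% of 241 without it. Nlrp3 had the other order, in 37.7% of KO cells with Il1b and 15.8% without, and in 29.8% and 14.5% of such WT cells. So did the decoy Il1r2 in WT cells, 51.2% with and 30.7% without, and Ptgs2, 55.2% and 39.4%. Spleen neutrophils had the opposite order for Il1rn, 17.7% with and 8.21% without Il1b in KO, and 21.5% and 16.7% in WT.

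Taken as 1 class, tumour dendritic cells had more Il1b and less of both brakes in KO, while the subsets differed. Type 1 cells were 138 of the KO and 62 of the WT cells, and type 2 cells 83 and 80. The part of that mix in the class ratios was not tested. Il1b had 452 CPM in 319 KO cells and 292 CPM in 219 WT cells (0.63 [0.54, 0.72]), a call that thinning (0.33) and equal weight for each cell (0.52) ended. The antagonist Il1rn had 19.3 and 41.3 CPM (-1.10 [-1.44, -0.77]) and the decoy Il1r2 71.8 and 145 CPM (-1.02 [-1.19, -0.84]), and both calls held under all 9 alternatives, from -3.71 to -0.95 for Il1rn and from -1.29 to -0.79 for Il1r2. That made 1 of 6 genes higher and 2 lower, beside 7.11% and 5.43% of 9333 genes tested. Neutrophil markers in these cells summed to 14.6 CPM in KO and 74.9 CPM in WT, with 4 and 3 of 12 at 0. Their part in the Il1rn and Il1r2 values was not tested. Type 1 dendritic cells, which present antigen to CD8 T cells, had 14.3 CPM of Il1rn in KO and 43.1 CPM in WT (-1.59 [-2.14, -1.05]) and 327 and 179 CPM of Il1b (0.87 [0.68, 1.05], ended by 2 alternatives). Il1r2 in type 1 cells had a log2 ratio of -0.73, a call that 2 alternatives ended. Type 2 cells had 727 and 353 CPM of Il1b (1.04 [0.90, 1.19]), within 0.70 to 1.25 over the alternatives. In type 2 cells Il1rn and Il1r2 were not calls, and Il1r2 stood at 148 CPM in KO, against 55.4 CPM in KO type 1 cells. Migratory cells with Ccr7 and Fscn1, on their way to lymph nodes, had 14.2 CPM of Il1r2 in KO and 72.8 CPM in WT (-2.36 [-3.17, -1.61]), and 35.8 and 79.8 CPM of Il1rn (-1.16 [-1.71, -0.62]).

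Among lymphocytes, Il1r2 in tumour T cells had 11.9 CPM in KO and 19.5 CPM in WT (-0.72 [-1.01, -0.42]), with 36.0 and 64.3 CPM in regulatory T cells (-0.84 [-1.28, -0.38]). Thinning moved the T cell ratio to -0.31, and equal weight for each cell moved the regulatory T cell ratio to -0.51, so neither call held throughout. Ptgs2 was the other gene past 1.5-fold in T cells, 3.70 and 1.43 CPM (1.37), and its sign turned with Leiden clusters. In T cells 1 of 5 genes was higher and 1 lower, beside 4.66% and 5.43% of all genes. Il1rap was similar in KO and WT T cells, 9.84 CPM [8.64, 11.2] and 8.99 CPM [6.99, 11.4]. The tumour B cell class showed 4 of 4 genes lower in KO, beside 13.5% of all genes lower and 9.22% higher, with Il1b at 58.1 and 350.2 CPM and Il1rn at 41.2 and 343 CPM. Its neutrophil markers summed to 61.8 CPM in KO and 5642 CPM in WT with 5 and 3 of 12 at 0, and their part in those values was not tested.

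Summed over the whole tumour sort, in which neutrophils were scarcer in KO, all 8 log2 ratios lay below 0. Il1b had 372 CPM in KO and 548 CPM in WT (-0.56), Il1rn 74.7 and 328 CPM (-2.14), Ptgs2 60.6 and 214 CPM (-1.82) and Il1f9 2.84 and 23.3 CPM (-3.04). The remaining 4 ran from -1.55 for Il1r2 up to -0.97 for Nlrp3. Counted as UMIs per gated cell, Il1b had 4.70 in KO and 6.76 in WT. With the KO class levels put into the WT mix of classes it would have had 11.8, a log2 ratio to WT of 0.80 in place of -0.52. That step gives the level of the 100 KO neutrophils the weight of the 753 WT neutrophils. It is the class with the highest Il1b, and 5 of 9 alternatives ended its Il1b call. The same step moved Il1rn to -0.37 in place of -2.06 and Il1f9 to -0.65 in place of -3.46, both still below 0, and Nlrp3 to 0.41 in place of -0.86 and Ptgs2 to 0.21 in place of -1.70. For Il1b the lower level in the whole sort stood beside a higher level in its monocytes, macrophages and dendritic cells, whereas Il1rn was lower by both measures.

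The cells that held each gene changed with the mix. Neutrophils held 12.7% of the Il1b UMIs of the KO tumour and 53.4% of those of the WT tumour, while monocytes held 46.3% and 16.7% and dendritic cells 13.9% and 5.85%. For Il1rn, neutrophils held 14.7% in KO and 36.8% in WT, and cells the gate left out held 27.7% and 30.2%. The Il1rap of the KO tumour was mostly outside neutrophils, with 36.3% in T cells and 12.4% in neutrophils, against 4.79% and 60.1% in the WT tumour. Neutrophils held 41.8% of Il1f9 in KO and 75.5% in WT, and cells the gate left out held 39.2% and 17.5%. In the spleen neutrophils held 75.5% of Il1b in KO and 73% in WT, and 86.8% and 86.1% of Il1f9, and monocytes held 25.6% and 32.1% of Nlrp3.

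**Figure D5:**
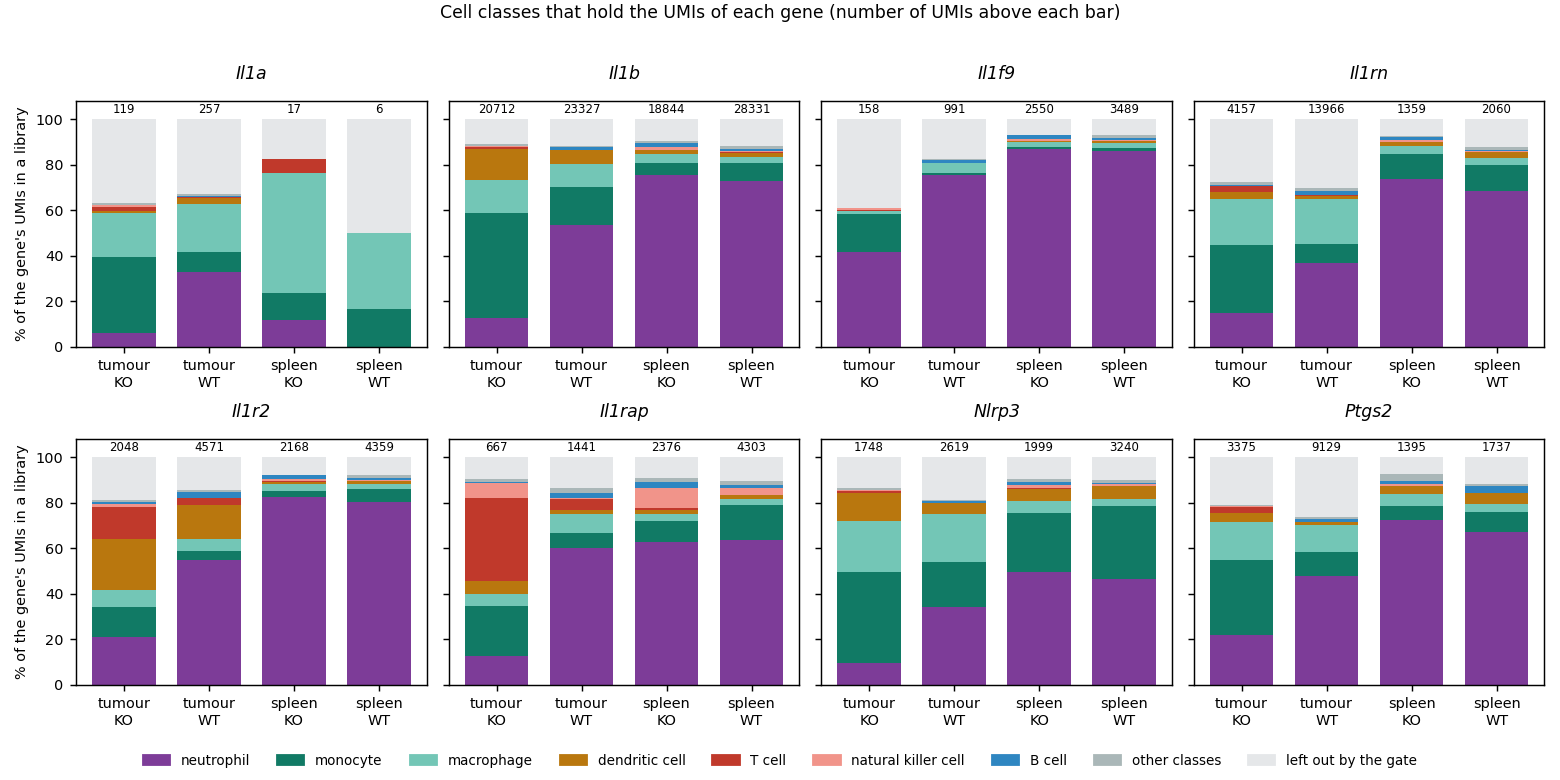
Share of each gene's UMIs held by each cell class (stacked, in percent, with UMI totals above the bars), KO left of WT in tumour and in spleen; cells the gate left out are a class of their own. Neutrophils hold 12.7% of Il1b in the KO tumour and 53.4% in the WT tumour, but 75.5% and 73% in the KO and WT spleens.

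In the spleen all 7 genes with at least 50 UMIs were past 1.5-fold lower in KO neutrophils, beside 16.2% of 8384 genes that were lower past 1.5-fold and 22.6% higher. Il1b had 1760.2 CPM in KO and 3530.1 CPM in WT (-1.0 [-1.03, -0.97]), Il1r2 221 and 599 CPM (-1.44 [-1.52, -1.36]) and Il1rap 185 and 469 CPM (-1.34 [-1.44, -1.25]). Il1rn, Il1f9, Nlrp3 and Ptgs2 had log2 ratios of -0.96, -0.91, -1.07 and -0.67. The make-up of the class differed as well: 488 of 1622 KO neutrophils and 78 of 1964 WT neutrophils were immature, with UMIs of at least 2 of the granule genes Ltf, Camp and Ngp. Immature cells had little Il1b, 296 CPM in KO and 249.7 CPM in WT. They were also deep, with medians of 10032 UMIs in KO and 7787 UMIs in WT against 2613 and 2666 in mature cells with Retnlg, so each weighs more in a sum. The part of the immature cells in the class ratios was not tested. When cells were thinned or given equal weight, the Il1b ratio was -0.23 or -0.22, and the calls of Il1rn, Il1f9, Nlrp3 and Ptgs2 ended as well, whereas Il1r2 (-1.56 to -0.83) and Il1rap (-1.41 to -0.63) kept theirs in all 9 alternatives.

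Mature neutrophils with a Retnlg UMI (1043 KO and 1741 WT cells) had near equal Il1b, 4263 CPM [4186, 4340.4] in KO and 3954 CPM [3898, 4010.4] in WT (0.11 [0.075, 0.14]). In them Nlrp3 (0.051), Il1f9 (0.045), Il1rap (-0.23) and Il1rn (-0.30) stayed within 1.5-fold. The decoy Il1r2 remained lower, 399 CPM [376, 424] in KO and 659.6 CPM [637, 683] in WT (-0.72 [-0.82, -0.62]), and ran from -0.78 to -0.62 over the alternatives. Ptgs2 had 297 and 197 CPM (0.59 [0.45, 0.73]), a call at the edge of the limit that 3 alternatives ended. Il1r2 was lower in immature cells too, 112 CPM in KO and 205 CPM in WT (-0.87, ended by 1 alternative). The remaining mature cells, with no Retnlg UMI (91 KO and 145 WT cells), gave other values. Il1r2 had 589 CPM in KO and 615 CPM in WT (-0.063 [-0.43, 0.30]), an interval that includes no difference. Ptgs2 was lower in them, 379 and 733 CPM (-0.95 [-1.37, -0.55]), opposite to the cells with Retnlg, and Il1b was near equal (0.012).

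Spleen monocytes had low levels. Il1b had 93.3 CPM [87.5, 99.4] in KO and 93.6 CPM [89.7, 97.6] in WT, a log2 ratio of -0.0045 [-0.12, 0.11] whose interval lies within 1.5-fold. In the 83 KO and 337 WT monocytes with no UMI of S100a8 or S100a9, however, Il1b was lower in KO, 49.1 CPM against 127 CPM in WT (-1.37 [-1.90, -0.87]), from 36 and 386 UMIs. Il1rn had 14.5 and 9.89 CPM (0.55 [0.25, 0.85]), and the decoy Il1r2 was the single call, 5.64 and 10.2 CPM (-0.85 [-1.29, -0.43]), kept in all 9 alternatives. Among the cells with no UMI of S100a8 or S100a9 Il1r2 had 8 and 17 UMIs, too few to count as tested, and a ratio of the other sign (0.97 [-0.45, 2.26]). In the whole class 0 of 7 genes were higher and 1 lower, beside 4.73% and 2.75% of all genes. In classical monocytes Il1r2 had 6.48 CPM in KO and 16.9 CPM in WT (-1.38 [-1.90, -0.90]). With macrophages added, Il1b had 148 CPM in KO and 113 CPM in WT (0.39 [0.30, 0.48]), while the cells of that joined class with no UMI of S100a8 or S100a9 had 88.9 CPM in KO and 127 CPM in WT, from 78 and 425 UMIs, the opposite direction (-0.52 [-0.88, -0.16]). In the joined class 1 of 7 genes, Ptgs2, was past 1.5-fold (13.6 and 8.5 CPM, 0.68 [0.38, 0.98]), beside 6.37% of all genes higher and 2.21% lower. The spleen macrophage class carried neutrophil markers at 7797 CPM in KO and 5245 CPM in WT, whose part in these values was not tested. Spleen dendritic cells had 88.4 CPM of Il1b in KO and 123 CPM in WT (-0.47 [-0.68, -0.27]) and 2 of 6 genes lower, Il1rn (-0.78) and Il1r2 (-0.59, ended by 4 alternatives), beside 3.82% of all genes higher and 3.17% lower.

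Within a genotype, tumour and spleen cells of 1 class differed widely. Monocytes of the KO tumour had 1216 CPM of Il1b against 93.3 CPM in KO spleen monocytes (3.70 [3.61, 3.80]), and those of the WT tumour 674 against 93.6 CPM (2.85 [2.77, 2.92]). Among the genes with at least 50 UMIs Ptgs2 differed most, with log2 ratios of 4.11 in KO and 4.66 in WT, and Il1rn had 3.45 in KO and 4.37 in WT. Il1r2 followed with 2.60 in KO and 1.53 in WT and Nlrp3 with 0.83 in KO and 1.02 in WT, while Il1rap had -0.17 in KO and -0.75 in WT. In KO monocytes 5 of 6 genes were past 1.5-fold higher and 0 lower, beside 11.1% and 36.8% of all genes, and in WT monocytes 5 of 7 were higher and 1 lower, beside 12% and 38.2%. The median over all genes tested was -0.36 in KO and -0.38 in WT, and the shift that TMM scaling takes off was -0.28 in KO and -0.25 in WT. The sorts differed between the organs, so sort and organ cannot be told apart here.

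In neutrophils the difference between organs varied by gene. In WT neutrophils Il1b was near equal, 4399.6 CPM in the tumour and 3530.1 CPM in the spleen (0.32 [0.29, 0.35]), whereas Il1rn had 1814 and 241 CPM (2.91 [2.83, 3.00]) and Ptgs2 1539 and 198 CPM (2.95 [2.86, 3.05]). Il1a had 84 UMIs in the tumour and 0 in the spleen. With the spleen class set to a floor of 3 UMIs in all, the log2 ratio was 5.85, a value that depends on that floor. Il1f9 (-0.96) and Il1rap (-0.62) were lower in the tumour, with the Il1rap call ended by 3 alternatives. That was 3 of 8 genes higher and 2 lower, beside 22.7% and 40.6% of all genes. Neutrophils with a Retnlg UMI, a gene of circulating cells, gave like values in WT: Il1rn 2.46, Ptgs2 2.69, Il1b 0.17 and Il1f9 -1.22. In KO the whole class gave 1.94 for Il1b, 3.66 for Il1rn and 3.92 for Ptgs2, beside 26.6% of genes past 1.5-fold higher and 32.1% lower, against a spleen class that held 488 immature cells. In KO mature cells with no Retnlg UMI (61 tumour and 91 spleen cells) the ratios were 0.28 for Il1b, 2.99 for Il1rn and 2.80 for Ptgs2, and those with a Retnlg UMI were 38 in the tumour, too few for a ratio.

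The wider pathway was followed by 6 lists of 89 genes, described by counts past 1.5-fold. In tumour mononuclear phagocytes the inflammasome and processing genes had 7 of 15 higher and 0 lower (median 0.51), and the receptor signalling genes and their brakes 7 of 26 higher and 0 lower (median 0.34), against -0.026 over all genes and 9.11% of genes past the limit higher. The classes apart gave smaller medians. Inflammasome genes had 3 higher and 0 lower in monocytes (0.35), and 5 and 0 in macrophages (0.20). Signalling genes had 4 higher and 1 lower in monocytes (0.18), and 7 and 2 in macrophages (0.22). Of all genes, 7.47% were higher and 7.5% lower in monocytes, and 8.18% and 9.68% in macrophages. The joined class held 573 monocytes and 276 macrophages in KO, and 432 and 585 in WT. The part of that mix was not tested. Casp4, the caspase of the non-canonical inflammasome, had 75.1 and 30.7 CPM in KO and WT macrophages (1.29) and 123 and 57.0 CPM in monocytes (1.10). Gsdmd, whose cleaved protein forms the pore that releases interleukin 1 beta, had a macrophage log2 ratio of 0.95, Mefv (pyrin) 0.92, and in monocytes Casp1 had 0.76 and Nlrp1b 0.78. Among the signalling genes the NF-kB brakes Nfkbie (1.58 in macrophages and 0.77 in monocytes) and Tnfaip3 (1.17 in monocytes) were higher, as were the ubiquitin ligase Peli1 (0.79 and 0.88) and Nfkb2 (0.82 in macrophages). Irak3, the inhibitory member of the receptor kinases, was lower in monocytes (-0.68), and Tollip (-0.68) and Tab1 (-0.73, an interval that includes no difference) were lower in macrophages. The signalling receptor Il1r1 itself had 3 and 4 UMIs in KO and WT monocytes and 0 in neutrophils of both tumours.

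Other ligands had 2 of 2 genes higher in tumour mononuclear phagocytes, where 9.11% of all genes were higher and 11.3% lower. These were Il18, the relative that inflammasomes also process (0.61 in macrophages and 0.72 in monocytes), and Il18bp, its soluble antagonist, with 90.7 and 29.4 CPM in KO and WT macrophages (1.62) and 46.3 and 14.0 CPM in monocytes (1.73). The other receptors had 2 of 4 higher and 1 lower (median 0.46), with Il18rap at 1.04 in macrophages. The prostaglandin pathway had 1 of 14 higher and 3 lower (median -0.045). In macrophages the prostaglandin-degrading Hpgd (-1.21) and the prostaglandin D synthase Hpgds (-0.91) were lower, with Ptgs1 at -0.68 (an interval that includes no difference), the receptor Ptger4 was higher (0.65), and in monocytes Ptger2 was lower (-1.26).

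In the joined class, genes that inflammatory stimuli induce beside Il1b had 2 of 15 higher and 4 lower (median -0.18), and the rest were within 1.5-fold, beside 9.11% of all genes higher and 11.3% lower. Monocytes alone had 3 of 15 higher and 6 lower, beside 7.47% and 7.5% of all genes. Macrophages had 4 of 15 higher and 3 lower, beside 8.18% and 9.68%. Acod1, which makes itaconate, was higher in KO macrophages (1.54) and monocytes (1.25), as were Icam1 (0.95 and 0.76), Tnf in macrophages (0.63) and Ccl4 in monocytes (0.64). The neutrophil-attracting chemokines ran the other way, most of all Cxcl3, with 14.3 and 456 CPM in KO and WT macrophages (-4.99) and 17.2 and 1107 CPM in monocytes (-6.00). Cxcl2 had -0.84 and -1.95 and Cxcl1 -0.95 and -1.69 in macrophages and monocytes, with signs that turned under some alternatives.

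In tumour neutrophils 24.5% of all genes were past 1.5-fold higher and 15.3% lower. The signalling genes had 8 of 24 higher and 3 lower (median 0.15), with Nfkbie (1.51), Irak4 (1.12) and Myd88 (1.07) higher and Tollip (-1.21), Zc3h12a (-0.80) and Traf6 (-0.72, an interval that includes no difference) lower. The inflammasome genes had 1 of 10 higher and 1 lower (median -0.0036), Casp4 at 0.73 and Cflar at -0.66, and the prostaglandin genes 1 of 7 higher and 1 lower (median 0.40), Lta4h at 0.76 (an interval that includes no difference) and Hpgds at -1.72. The co-induced genes had 2 of 13 higher and 6 lower (median -0.57), with Sod2 (0.84) and Acod1 (0.73) higher and Cxcl3 (-2.61), Ier3 (-1.26) and Cd14 (-1.04) among the lower ones. TMM scaling lowers all of these ratios by 0.40 and ended the calls of Casp4 (0.33), Sod2 (0.45), Acod1 (0.33) and Lta4h (0.36). Il18bp had 95.1 and 10.2 CPM in KO and WT neutrophils (3.22).

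Spleen neutrophils had 1 of 26 higher and 7 lower (median -0.31) among the signalling genes, 1 of 13 higher and 4 lower (median -0.28) among the inflammasome genes, 6 of 12 higher and 2 lower (median 0.44) among the prostaglandin genes and 1 of 13 higher and 7 lower (median -0.72) among the co-induced genes, beside 22.6% of all genes higher and 16.2% lower, in the class whose immature share differed. The adaptor Pycard (1.41) and, in the prostaglandin and leukotriene pathway, Ptges (2.56), Lta4h (2.17) and Ptgs1 (1.70) were higher. Casp4 (-0.98), Txnip (-0.90), Mefv (-0.79), Zfp36 (-0.94), Peli1 (-0.85), Myd88 (-0.79), Hpgd (-1.0), Tbxas1 (-0.90), Icam1 (-1.42), Tlr4 (-1.07), Cd14 (-0.99) and Il18rap (-0.63) were lower, and Nfkbie (0.75) and Tnf (0.74) higher. In spleen monocytes the inflammasome list had 0 higher and 0 lower of 15, and the signalling list 0 and 0 of 26, beside 4.73% of all genes higher and 2.75% lower. The calls there were Cxcl2 higher (2.08), and Il18rap (-0.69), Hpgds (-1.12), Alox5 (-0.59), Ier3 (-0.87), Clec4e (-0.68) and Cd14 (-0.64) lower.

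The genes whose levels ran most like each of the 8 were sought among 10151 genes over 32 class and library sums, by Pearson's r of log2(CPM + 1). The sums share libraries and classes, so r only describes likeness. Il1b was most like Nlrp3 (0.95), Slc7a11 (0.95) and Mcl1 (0.94), and Nlrp3 most like Gm34084 (0.96), Il1b (0.95) and Oasl2 (0.94). Il1rn was most like Ptgs2 (0.96), Hcar2 (0.95) and Ccr1 (0.95), and Ptgs2 most like Slc7a11 (0.97), Il1rn (0.96) and Ccr1 (0.94). Both of these pairs, ligand with sensor and antagonist with cyclooxygenase 2, lay among each other's 3 nearest genes by r. By Spearman's rho Il1b was no longer among the 3 genes nearest to Nlrp3, while Il1rn and Ptgs2 still named each other. Il1f9 was most like the neutrophil genes Cxcr2 (0.97), Mmp9 (0.97) and Retnlg (0.96), and Il1rap like Il1f9 (0.95), Gm35769 (0.94) and 4732465J04Rik (0.94). Il1r2 was most like Slc7a11 (0.90), Gm34455 (0.89) and Ankrd33b (0.89), and Il1a like Tmem189 (0.89), Ninj1 (0.87) and 4930430E12Rik (0.86). With Spearman's rho in place of r, all 3 genes stayed for Il1b, 2 for Il1rn, Nlrp3 and Ptgs2, 1 for Il1f9 and 0 for Il1a, Il1r2 and Il1rap.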

How the data were processed

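Single cells were profiled in 4 libraries with the 10x 3′ v3.1 kit, with 16000 cells loaded per lane. The authors deposited raw UMI counts for every gene and barcode, without normalization, written by Cell Ranger 6.0.0 per the file headers. The submitters' processing notes name Cell Ranger 3.1, Seurat 3.1 and 3.1.4, and the builds mm10 and GRCm38. Each matrix of the authors lists 32285 genes and had empty droplets removed. The 8 genes and the lists below were chosen with earlier results of these data known.

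Cells with at least 200 genes, 500 UMIs and at most 10% mitochondrial UMIs were kept, a limit that removed 1420 tumour KO, 685 tumour WT, 792 spleen KO and 543 spleen WT barcodes. Doublets were scored with Scrublet (scanpy 1.11.5) and left out. The automatic threshold marked 5.69% of spleen WT and 2.56% of spleen KO cells, but 0.136% of tumour KO and 0.462% of tumour WT cells, where the top 5.07% and 4.32% of scores were removed instead. Each cell took the class of the highest of 13 marker-list scores where it led the next by 0.2, and 577, 680, 1049 and 1609 tumour KO, tumour WT, spleen KO and spleen WT cells lay just above that margin. All class names mean cells like that type. Doublets that escaped and RNA of other cells can add UMIs to a class.

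UMIs were summed per class and library and scaled to the class total (CPM). Levels carry exact Poisson, shares exact (Clopper-Pearson) and ratios exact conditional binomial 95% intervals, for counting error only. A class needed 50 cells in both libraries, and a gene 50 UMIs over both to be counted as tested. Past 1.5-fold counts as a call. The genes named from the lists were those with the up to 3 largest ratios past 1.5-fold in each direction. The ratio script was tested on simulated counts. Alternatives were Leiden clusters (leidenalg 0.10.2), a margin of 0.5, a mitochondrial limit of 20%, doublets kept, cells thinned to 1000 UMIs, equal weight for each cell, TMM and median-of-ratios scaling, and other limits of count and fold. A gate without margin, and phagocytes without S100a8 and S100a9 UMIs, were added after seeing the data.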

Additional observations from a re-analysis of the deposited data

Results flagged for a closer look

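For 6 pairs of a gene and a single gated class, the KO over WT ratio had opposite signs in tumour and spleen. In these pairs neither counting interval reached 0. Subsets and the joined class of monocytes and macrophages were left out of that count. With 1 library per genotype and organ, the difference between organs was not tested. In the neutrophil class the log2 ratio of Il1b was 0.62 [0.56, 0.68] in the tumour and -1.0 [-1.03, -0.97] in the spleen, that of Il1r2 0.31 [0.16, 0.46] in the tumour and -1.44 [-1.52, -1.36] in the spleen, that of Nlrp3 0.47 [0.23, 0.71] in the tumour and -1.07 [-1.18, -0.95] in the spleen and that of Ptgs2 0.30 [0.19, 0.41] in the tumour and -0.67 [-0.79, -0.55] in the spleen. Beside these stand 100 KO neutrophils in the tumour and 488 immature cells among the KO neutrophils of the spleen, and in spleen neutrophils with a Retnlg UMI the ratios were 0.11 for Il1b, 0.051 for Nlrp3 and 0.59 for Ptgs2, none of them opposite to the tumour, and -0.72 for Il1r2. In mature spleen neutrophils with no Retnlg UMI they were 0.012 for Il1b, -0.022 for Nlrp3, -0.95 for Ptgs2, which is opposite to the tumour, and -0.063 for Il1r2. TMM scaling turned the tumour signs of Il1r2 and Ptgs2. In the monocyte class Il1rn had -0.38 [-0.49, -0.26] in the tumour and 0.55 [0.25, 0.85] in the spleen, where Leiden clusters gave 0.19 in the tumour. In the dendritic cell class Il1b had 0.63 [0.54, 0.72] in the tumour and -0.47 [-0.68, -0.27] in the spleen. Opposite signs also occurred outside the single classes. In the joined class Il1rn had -0.52 in the tumour and 0.54 [0.27, 0.80] in the spleen. Non-classical monocytes had -0.79 and 0.76 [0.29, 1.22] for Il1rn in tumour and spleen. Type 2 dendritic cells had 1.04 and -0.83 [-1.16, -0.50] for Il1b. Monocytes with no UMI of S100a8 or S100a9 had 0.86 and -1.37 for Il1b. The share of all genes with opposite signs was not counted.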

How the results depend on the processing

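No paired analysis was possible because each genotype and organ had 1 pooled library, and for the same reason no replicate could be left out. Of 35 tumour ratios of the 8 genes past 1.5-fold, those that kept direction and limit numbered 24 with Leiden clusters, 28 with the stricter gate, 31 with the 20% mitochondrial limit, 33 with doublets kept, 31 without a margin (added after seeing the data), 20 of 32 after thinning, 27 with equal weight and 34 with TMM or median-of-ratios scaling. Of 28 spleen ratios the fewest, 14 of 27, kept both after thinning. In tumour mononuclear phagocytes Il1b was 1.31 with clusters, 1.31 with doublets and 1.32 with equal weight. Il1rn was -0.60 with doublets, -0.77 thinned and -0.63 with equal weight. Il1b UMIs for each Il1rn UMI were 5.44 in KO and 1.49 in WT with clusters, 5.53 and 1.5 without a margin, 6.76 and 1.52 thinned and 6.38 and 1.82 without cells with S100a8 or S100a9 UMIs (also added later), and in WT 1.76 with the stricter gate and 1.52 with doublets. Neutrophil Il1b was 0.43 with clusters, 0.72 with doublets, 0.72 thinned, 0.22 with TMM and 0.21 with median of ratios. Neutrophil Il1rn was 0.070 with clusters, -0.58 with the stricter gate, -0.63 thinned, -0.61 with TMM and -0.62 with median of ratios. Monocyte Il1b was 1.43 with clusters, 0.68 with the stricter gate, 0.80 at 20%, 1.03 thinned and 0.94 with equal weight. Monocyte Il1rn was 0.19, 0.16, -0.52 and -0.66 with clusters, stricter gate, doublets and thinning, and -0.072 without S100a8 or S100a9 UMIs. Macrophage Il1b was 0.19 with clusters, 1.32 with the stricter gate, 1.53 at 20%, 1.27 with doublets, 1.30 thinned, 1.25 with equal weight and 1.68 without S100a8 or S100a9 UMIs. Macrophage Il1rn was 0.23 with clusters, -0.69 with the stricter gate, -0.74 thinned and -0.68 without S100a8 or S100a9 UMIs. In tumour mononuclear phagocytes 2185 genes of all were past the limit, 4994 with no count minimum, 1303 with a minimum of 200 UMIs and 947 at 2-fold.

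Signs turned as follows. With clusters: tumour neutrophil Il1a 0.67, monocyte Cxcl2 0.78, macrophage Il18rap -0.15 and Tab1 0.058, T cell Ptgs2 -0.69, natural killer cell Il1b -0.56, type 1 dendritic cell Ptgs2 2.67, spleen T cell Il1b 0.27 and type 2 dendritic cell Il1r2 0.19, and WT classical monocyte Nlrp3, tumour over spleen, -0.29. With the stricter gate: monocyte Cxcl1 1.81, macrophage Cxcl1 0.54 and T cell Ptgs2 -0.55. Neutrophil Il1a was 0.76 at the 20% limit and 0.85 without a margin. Thinned: tumour neutrophil Tollip 0.18, macrophage Tab1 0.36 and Cxcl1 1.10, non-classical monocyte Il1r2 -0.96, type 1 and type 2 dendritic cell Ptgs2 0.85 and -0.053, spleen neutrophil Ptgs2 0.15, monocyte Ier3 0.32 and immature neutrophil Nlrp3 0.55. With equal weight: natural killer cell Il1b -0.52, spleen neutrophil Ptgs2 0.10 and immature neutrophil Nlrp3 0.0060. The cause of these changes was not tested. Few UMIs limit Il1a, and Il1f9 outside neutrophils, and the number of cells, 100, limits the KO tumour neutrophils.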
